A study of Homo sapiens with 12 samples.

Results

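N6-methyladenosine (m6A) is the most common internal base modification of mammalian mRNA. A nuclear complex of METTL3 and METTL14 with partners such as WTAP and VIRMA writes it, the demethylases FTO and ALKBH5 can remove it, and reader proteins of the YTH family bind it. The writer complex methylates the middle A of the motif DRACH, with A, G or T at D, a purine at R, and A, C or T at H. The base before the methylated A is most often G, and the form with A there is the less common one. The sites described here are those with A before the methylated base, called AAC sites after the 3 central letters of their 5-mer; sites with G there are called GAC sites.

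The cells were of the line HEK293E, which goes back to human embryonic kidney. They were starved of serum and given 200 nM insulin for 30 h, in one condition alone and in the other following 250 nM Torin1. Torin1 inhibits mTOR, a kinase that couples growth signals and nutrients to protein synthesis. Both conditions thus carried insulin, and no cells without insulin entered the study. Poly(A) RNA, described in the labels as 3 biological replicates, was sequenced directly (input) or after miCLIP. In miCLIP an antibody against m6A is crosslinked to RNA and leaves base substitutions in the reads at or beside the methylated base. The 12 samples formed 4 groups of 3.

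Of 160249 listed sites, 56665 were AAC sites, at 48222 distinct positions of 132871. The choice used only the letter before the methylated base. The insulin list held 34410 AAC sites of 96671, or 35.6% (Wilson 95% interval 35.3% to 35.9%), and the Torin1 list 22255 of 63578, or 35.0% (34.6% to 35.4%). All other sites were GAC sites, and each AAC site carried 1 of 9 5-mers. Each position stood once in a list, under 1 replicate, so the libraries below are the sites listed under a replicate and not full, independent yields. How often each 5-mer occurs in expressed transcripts was not counted here, so shares of 5-mers are not rates of methylation.

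The 9 AAC 5-mers follow, within 21 nt of RefSeq sequence (GRCh38.p14), to show the context that defines these sites; capitals mark the 5-mer, whose middle A is the listed base. They come from the windows around gene starts, the only genomic sequence used here, in which 592 of the 48222 positions lay. For each 5-mer the site with the most substituted reads in those windows was taken, with chromosome 18 left out. Each is therefore an example of the context and not of the usual place in a gene.
SMC4, chr3:160399668-160399688, plus strand: cggagccgAAACAccggtagg
TM9SF2, chr13:99501316-99501336, plus strand: cgcgcggaAAACCcggaaagt
TMEM179B, chr11:62787208-62787228, plus strand: acgtgcagAAACTgcccatga
MAP3K11, chr11:65614174-65614194, minus strand: ggggccagGAACAggcagtct
HSP90B1, chr12:103930438-103930458, plus strand: gaggatccGAACCcaggggtg
CAND1, chr12:67269275-67269295, plus strand: gcctccgtGAACTctgacctt
HES1, chr3:194136165-194136185, plus strand: ggtgctgaTAACAgcggaatc
DRAP1, chr11:65919338-65919358, plus strand: cggcgtctTAACCggcggcgc
MZT2A, chr2:131492533-131492553, minus strand: gcgcccacTAACTgttgggct

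The sites shown for TM9SF2, TMEM179B, CAND1, DRAP1 and MZT2A lay before the annotated start of the gene they are named after, and the others after it. The example in MAP3K11, a kinase gene, lay 38 nt after the gene start and carried 5 substituted of 28 reads with insulin and 4 of 38 with Torin1. The one near CAND1, which encodes an exchange factor of cullin ubiquitin ligases, lay 73 nt before the start, with 7 of 9 and 6 of 6 reads substituted. The example 146 nt before TM9SF2, which encodes a membrane protein, was listed with insulin alone, with 4 of 7 reads, and the one 78 nt before DRAP1, a transcriptional corepressor gene, likewise, with 3 of 55.

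AAC sites took close to the same share of the sites in every miCLIP library. The share was 34.2%, 37.1% and 37.1% under insulin replicates 1, 2 and 3, and 34.7%, 39.8% and 37.0% under the Torin1 replicates. The groups overlapped. Their means were 36.1 ± 1.63% with insulin and 37.1 ± 2.54% with Torin1 (SD, n = 3 each), a difference of 1.00 points with p = 0.6 in a two-sided exact permutation test, whose smallest possible p is 0.1. Without Torin1 replicate 2, which held 617 AAC sites of 1552, the difference was -0.311 points. The other libraries held 2117 to 19521 AAC sites.

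**Figure D1:**
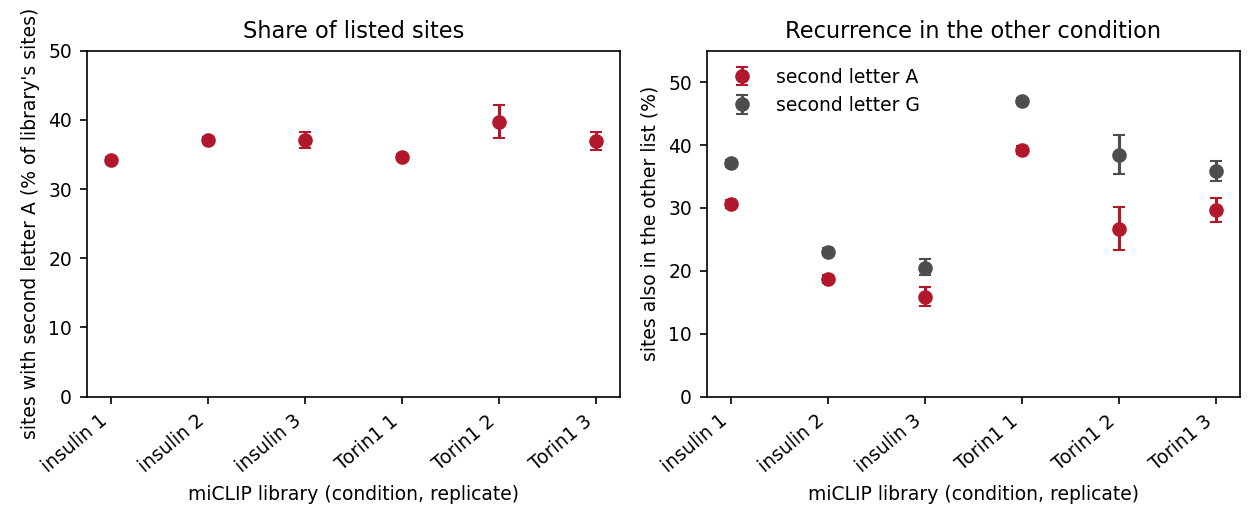
Left, AAC sites as a percentage of the sites listed under each miCLIP library; right, the percentage of AAC (red) and GAC (grey) sites whose position was also in the other condition's list. Points are single libraries and bars are Wilson 95% intervals, which cover counting error only; the shares lie between 34.2% and 39.8%, and the red points lie below the grey ones in all 6 libraries.

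Most AAC sites rested on few reads and on 1 substituted read. The median number of reads over an AAC site was 7 in the insulin list and 10 in the Torin1 list, against 8 and 14 over a GAC site. In the insulin list 63.9% of AAC sites had a single substituted read, against 60.3% of GAC sites, and in the Torin1 list 63.1% against 57.7%. At the other end, 158 AAC sites with insulin and 208 with Torin1 had 10 or more substituted reads, which is 0.459% and 0.935% of them, against 0.801% and 1.64% of GAC sites. Within each library the share with 1 substituted read was higher for AAC than for GAC sites, by 4.72 points on average (2.65 to 10.1, higher in 6 of 6; exact sign-flip permutation test over the 6 libraries, adjusted p = 0.0417, adjusted over 8 such comparisons). The smallest p this test can give is 0.03125 before adjustment. Compared within classes of similar read number, the difference was 1.70 points, again higher in 6 of 6. Most of these classes span a range of read numbers, so depth could still differ within a class. The median read number itself was lower for AAC sites in 4 libraries and equal in the remaining ones, with adjusted p = 0.143 in the same exact test.

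The substituted fraction, the part of the reads over a site that were substituted, averaged 0.358 at AAC sites with insulin and 0.313 with Torin1. GAC sites averaged 0.328 and 0.267. The fraction was higher at AAC sites in 6 of 6 libraries, by 0.0343 on average (adjusted p = 0.0417, exact sign-flip permutation test). This direction did not hold at similar depth. Within the same classes of similar read number the fraction was lower at AAC sites in 6 of 6 libraries, with a mean difference of -0.00503. All reads were substituted at 6438 AAC sites with insulin and 3908 with Torin1, and 4782 and 2956 of those were covered by 1 read.

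AAC sites were listed in both conditions less often than GAC sites. The 8443 positions in both lists were 24.5% of AAC sites with insulin (Wilson 95% interval 24.1% to 25.0%) and 37.9% with Torin1 (37.3% to 38.6%), while 30.4% and 45.8% of GAC sites recurred. By library, the AAC share that recurred was 30.6%, 18.7% and 15.9% for the insulin replicates and 39.2%, 26.6% and 29.7% for the Torin1 replicates. The difference from GAC sites was -6.88 points on average, from -4.35 under insulin replicate 2 to -11.8 under Torin1 replicate 2, lower in 6 of 6 (adjusted p = 0.0417, exact sign-flip permutation test). It was -6.22 points within classes of similar numbers of substituted reads and -4.95 within classes of similar read number. The gap was -6.46, -4.35 and -4.67 points under the insulin replicates and -7.79, -11.8 and -6.20 under the Torin1 replicates, which overlap; the exact permutation test of 3 against 3 gave p = 0.2 and cannot go below 0.1. Torin1 replicate 1 held 7651 of the 8443 recurring AAC positions. Each recurring position counts once under an insulin library and once under a Torin1 library. The 6 differences therefore share positions and are not independent, which the sign-flip test does not take into account.

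Recurrence rose with the number of substituted reads, and AAC sites recurred less often than GAC sites in each class up to 5 to 9 substituted reads. Under insulin replicate 1 it went from 22.9% of AAC sites with 1 substituted read through 48.3% with 3 to 4 to 94.1% with 10 or more, against 27.4%, 54.4% and 94.0% of GAC sites. Under Torin1 replicate 1 the AAC values were 29.4%, 61.8% and 98.6%, against 36.2%, 65.8% and 97.8%. In the class with 5 to 9 substituted reads the values were 71.4% (Wilson 95% interval 68.1% to 74.6%) against 77.1% (75.1% to 78.9%) for insulin and 85.0% against 88.1% for Torin1. In the class with 10 or more substituted reads, which held 153 and 208 AAC sites, the intervals of both kinds of site overlapped.

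**Figure D2:**
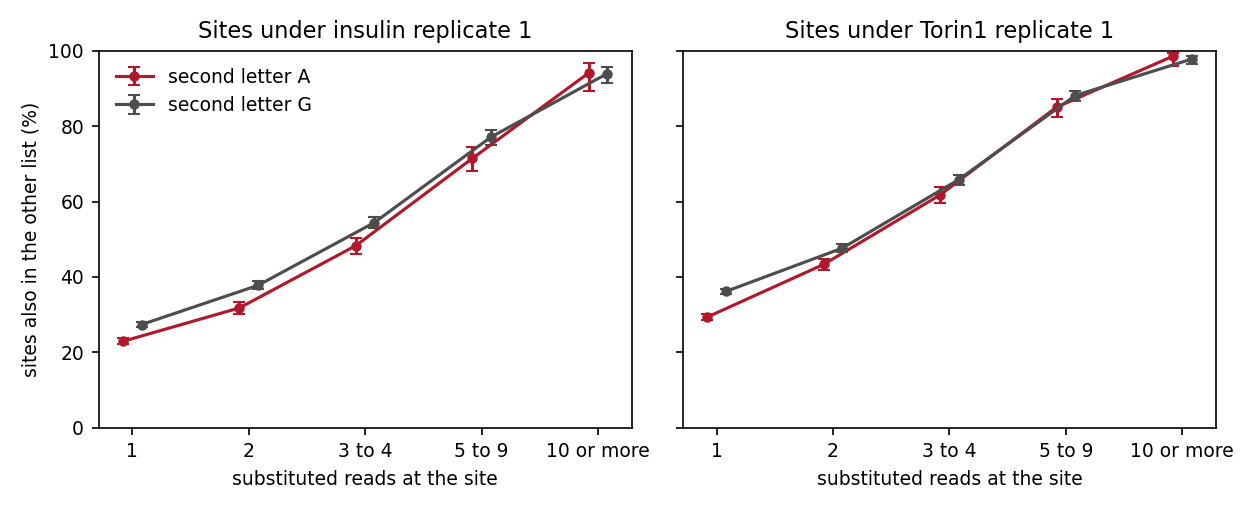
Percentage of sites also in the other condition's list, by the number of substituted reads at the site, for sites under insulin replicate 1 (left) and Torin1 replicate 1 (right). Red is AAC and grey GAC, bars are Wilson 95% intervals; the red points lie below the grey ones up to 5 to 9 substituted reads and both meet at 10 or more.

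At the 4885 AAC positions listed under replicate 1 in both conditions the substituted fraction was usually lower with Torin1. Its median was 0.111 with insulin and 0.0638 with Torin1, and it was lower with Torin1 at 69.5% of positions and higher at 27.2%. The GAC positions gave 72.3% and 25.4%. The median position had 19 reads with insulin and 32 with Torin1, so depth moved with the condition. At the 753 AAC positions with 50 or more reads in both libraries the medians were 0.0353 and 0.0210, lower with Torin1 at 70.5%. These values compare 1 library with 1 library and have no replicate check, and the part of depth in them was not tested.

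The other letters of the 5-mer were not distributed as in GAC sites. G came first in 53.4% of AAC sites with insulin and 53.7% with Torin1, A in 34.0% and 33.6%, and T in 12.6% and 12.7%. In GAC sites T came first in 21.4% and 20.5%. Within libraries the share with first letter G was higher in AAC sites by 2.82 points on average (0.309 to 4.93, 6 of 6), and the share with last letter C was lower by 4.37 points (6 of 6), each with adjusted p = 0.0417 in the exact sign-flip permutation test. The size of these differences moved with the sites taken. Among sites with 10 or more reads they were 0.479 points for first letter G and -7.08 for last letter C. That setting left 5 libraries, with which the exact test cannot pass 0.05. Among sites with 3 or more substituted reads they were 8.93 and -2.89, each with adjusted p = 0.0729 in the same exact test. AAC sites ended in T in 48.4% and 48.8% of cases, in A in 36.8% and 37.1%, and in C in 14.8% and 14.1%.

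The 5-mer GAACT was the most frequent AAC form, with 14468 sites over both lists, followed by GAACA with 11227, AAACT with 9430 and AAACA with 7077. TAACC was the rarest, with 953 sites. The 5-mers also differed in how often they recurred, in about the order of their frequency. Of GAACT sites 33.3% with insulin and 49.6% with Torin1 were in the other list, and of TAACC sites 10.2% and 15.7%. GAACT recurred more often than TAACC in each of the 6 libraries, by 11.7 to 39.6 points. It also did so against GAACA, by 5.41 to 8.93 points, and against AAACT, by 3.91 to 11.3 points. These pairs were picked after their values were seen and are given without a test. Over both lists GAACT recurred in 39.8% of its sites, near AGACT at 40.1% and below GGACA and GGACT, at 41.9% each. It was above every other GAC 5-mer, of which TGACT, at 36.4%, came closest. Sites with 1 substituted read made up 58.1% of GAACT and 72.0% of TAACC sites.

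A few AAC sites carried many substituted reads. The site with the most in the insulin list lay at chromosome 2, 108533177, minus strand (hg38), in the body of the long non-coding RNA gene GCC2-AS1, with the 5-mer AAACA; 397 of 3907 reads were substituted with insulin and 395 of 3139 with Torin1, both under replicate 1. The GAACC site at chromosome 3, 174377845, in RPL8P4, a pseudogene of a ribosomal protein gene, had 157 of 157 reads and 414 of 418. Whether these substitutions mark methylation was not tested. The AAACC site at chromosome 7, 93202030, within the body of HEPACAM2 but not assigned to it by strand, had 107 of 324 reads with insulin and 60 of 202 with Torin1. In EEF2, which encodes translation elongation factor 2, the TAACA site at chromosome 19, 3976399, lay 343 nt before the gene end, with 16 of 431 reads and 38 of 1901. The AAACT site at chromosome 15, 46446638, lay in no annotated gene body and had 55 of 1951 and 151 of 639 reads.

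By place, AAC sites lay less often near either end of a gene than GAC sites. Of the AAC sites, 81.5% with insulin and 82.0% with Torin1 were assigned to 1 protein-coding gene on the same strand. Within 2000 nt of the annotated gene end lay 30.5% and 31.8% of these, against 33.6% and 35.0% of GAC sites, and the median distance to the end was 3962.5 and 3920 nt against 3642 and 3545 nt. The difference in the share was -3.19 points on average, from -2.36 to -4.28, lower in 6 of 6 libraries (adjusted p = 0.0417, exact sign-flip permutation test). Restricted to sites that had at least 3 substituted reads, the difference came to -6.54 points, with adjusted p = 0.0729 in the same exact test. Within 2000 nt of the gene start lay 9.35% and 10.6% of AAC sites, against 11.9% and 12.9% of GAC sites. Distances were measured along the gene body, introns included. Exons and UTRs were not used here.

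**Figure D3:**
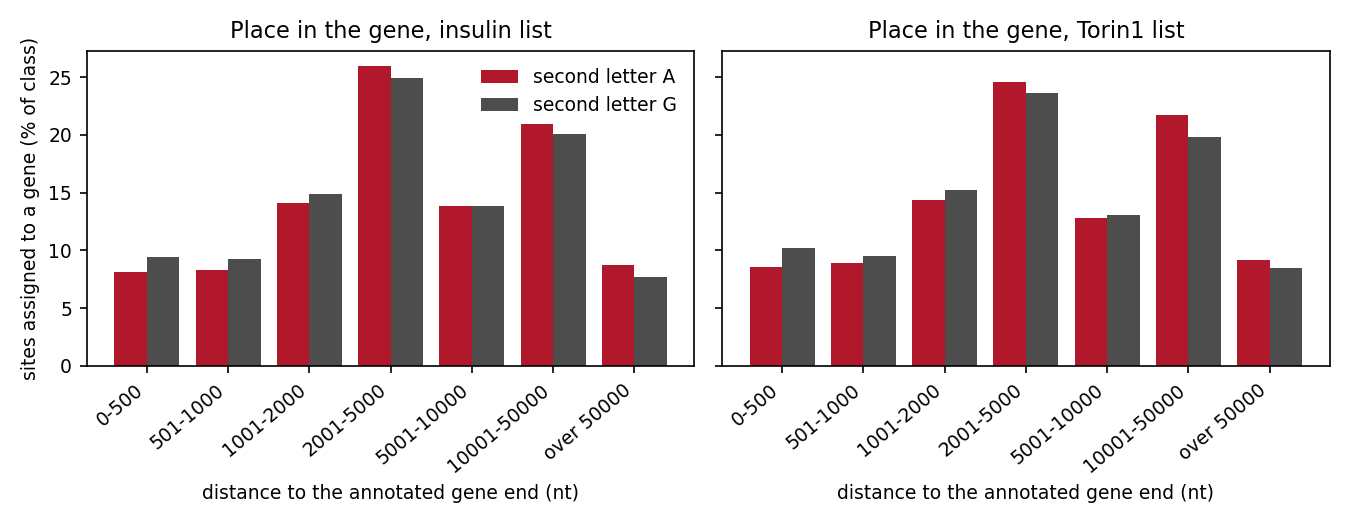
Sites assigned to a gene, in classes of distance to the annotated gene end (nt along the gene body), as a percentage of the AAC (red) or GAC (grey) sites of the insulin list (left) and the Torin1 list (right). The red bars are lower in the 3 classes up to 2000 nt, such as 8.10% against 9.46% within 500 nt with insulin.

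Over each list as a whole, AAC and GAC sites had neighbours about equally often. In the insulin list 37.0% of AAC sites had another listed site within 50 nt, against 36.9% of GAC sites, and in the Torin1 list 30.7% against 31.5%. The mean difference within libraries was -0.324 points, positive in 2 and negative in 4 (adjusted p = 0.5625, exact sign-flip permutation test). By library it was -0.243, 0.922 and 1.21 points under insulin replicates 1, 2 and 3. Under the Torin1 replicates it was -0.544, -1.48 and -1.81 points, so the conditions did not overlap. The exact permutation test of 3 against 3 gave p = 0.1, the smallest it can give.

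The mitochondrial genome stood apart in its share of AAC sites. Of its 200 sites in the insulin list 151 were AAC, or 75.5% (Wilson 95% interval 69.1% to 80.9%), and of its 208 in the Torin1 list 156, or 75.0%. The share was 74.8% of 123 sites under insulin replicate 1, 76.7% of 73 under insulin replicate 2 and 74.9% of 191 under Torin1 replicate 1, each at least 39.2 points above the sites in nuclear genes of the same library. The other 3 libraries held 4 to 13 such sites. On nuclear chromosomes the share ran from 30.1% on chromosome 19 to 39.8% on chromosome 6 with insulin, and from 28.2% to 40.1% on the same chromosomes with Torin1. The base composition of mitochondrial RNA was not measured, so a surplus of AAC 5-mers in that RNA and a preference for them cannot be told apart.

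Mitochondrial AAC sites were deep and had low fractions, and so did mitochondrial GAC sites. The median AAC site had 203 reads with insulin and 347.5 with Torin1, and the median fraction was 0.0113 and 0.00756. The GAC sites had medians of 221 and 404.5 reads, and fractions of 0.00760 and 0.00472. In both lists 113 AAC positions occurred, which is 74.8% of those with insulin and 72.4% of those with Torin1. Nearly all, 150 and 153, were on the plus strand. MT-RNR2, the large ribosomal RNA, had the most, with 33 and 28 sites, followed by MT-ND4 with 19 and 23 and MT-ND5 with 12 and 23, both of which encode subunits of respiratory complex I. MT-ND1, a further subunit of that complex, had 13 and 7. The leading 5-mers were AAACA, with 27 and 31 sites, and TAACA, with 26 and 25, whereas GAACT, the leading nuclear form, had 12 and 11. In the input, MT-ND5 measured 16442, 16160 and 17399 normalized units with insulin and 25420, 29010 and 24723 with Torin1. MT-ND1 measured 12525, 12151 and 11938 units, and 13201, 14584 and 13620 with Torin1. Both were called higher with Torin1 by limma, as was every mitochondrial mRNA tested. Their log2 fold changes ran from 0.16 for MT-ND2 to 0.85 for MT-CO2. Of all tested genes 43.4% were called higher.

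Across nuclear genes AAC sites were spread thinly. The insulin list had AAC sites in 7714 genes and the Torin1 list in 7006, of which 5687 were in both. With insulin 2441 genes had 1 AAC site and 484 had 10 or more; with Torin1 these were 2795 and 125. The share of AAC sites varied widely between genes. Among 430 genes with 40 or more sites over both lists it ran from 8.62% to 65.1%, with a median of 35.7%; 52 genes were above 50% and 39 below 20%. The highest were SCD, the stearoyl-CoA desaturase gene, with 28 AAC of 43 sites, OGT, the O-GlcNAc transferase gene, with 33 of 51, ERCC6L, which encodes a mitotic DNA translocase, with 29 of 45, ZNF721 with 37 of 59, and KAT6B, a histone acetyltransferase gene, with 30 of 49. The lowest were C15orf39 with 5 of 58, EPPK1, the epiplakin gene, with 4 of 43, SCAF1 with 4 of 40, TNKS1BP1, which encodes a tankyrase-binding protein, with 6 of 58, and PAQR4 with 5 of 48. These 10 genes were ranked by this share, which is a description.

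Gene lists also differed in their AAC share. All genes together had 35.8% AAC sites with insulin and 34.9% with Torin1. The 30 SR and hnRNP splicing factor genes had 47.6% (191 of 401) and 50.2% (161 of 321), and were above other genes in all 4 libraries with 20 or more of their sites, by 10.5 to 21.2 points. SRRM2 had 79 AAC of 150 sites over both lists, SON 55 of 159, SRSF1 21 of 29 and HNRNPA2B1 21 of 31, so SON was near the level of all genes. The 24 genes of mitosis and the spindle had 48.3% and 44.2%, with MKI67, the proliferation marker, at 76 of 172, ASPM, a spindle pole gene, at 42 of 69, CENPF, a kinetochore gene, at 41 of 77 and PCNT, the pericentrin gene, at 20 of 60, the last below the share of all genes. The 86 cytosolic ribosomal protein genes had 43.8% and 41.8%. The m6A writers had 30.0% and 31.0%, the readers 42.3% and 43.7%, the MAX network of MYC-related transcription factors 31.7% and 34.5%, the mTOR pathway 32.5% and 29.1%, and 32 chromatin regulators 39.3% and 36.1%. Lists were described by these counts and not tested.

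The ZNF genes, which encode zinc finger proteins, had 1357 AAC of 3194 sites with insulin, or 42.5%, and 756 of 1953 with Torin1, or 38.7%. Their share was above that of other genes in 6 of 6 libraries, by 3.71 to 7.95 points. The 5-mer AAACC, 4.70% of the AAC sites of all genes, was 11.97% of theirs. It was also frequent in the cytosolic ribosomal protein genes, at 10.6% of their AAC sites (30 sites). Zinc fingers of this family are encoded as tandem repeats of near constant length, and listed positions in ZNF genes, AAC and GAC alike, showed a regular spacing. Of 2033 pairs of AAC positions within 400 nt of each other in a gene, 159 or 7.82% were a multiple of 84 nt apart, with 50, 44, 36 and 29 pairs at 84, 168, 252 and 336 nt. Other distances held 4.73 pairs on average and at most 17. GAC positions in ZNF genes had 32, 28, 26 and 21 pairs at these distances, 107 of 3133 or 3.42%, and at most 18 at any other. In other genes 1.18% of 28270 pairs were at such multiples, which make up 1% of the distances. Of the 93 AAACC pairs in ZNF genes 50 were at multiples of 84 nt, in 22 genes, with 16 pairs in ZNF721 and 6 in ZNF431, against 3 of 91 AAACC pairs in other genes. ZNF genes are close copies of each other, so the gene that a read came from is less certain here, and the deposited lists do not say how such reads were placed.

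**Figure D4:**
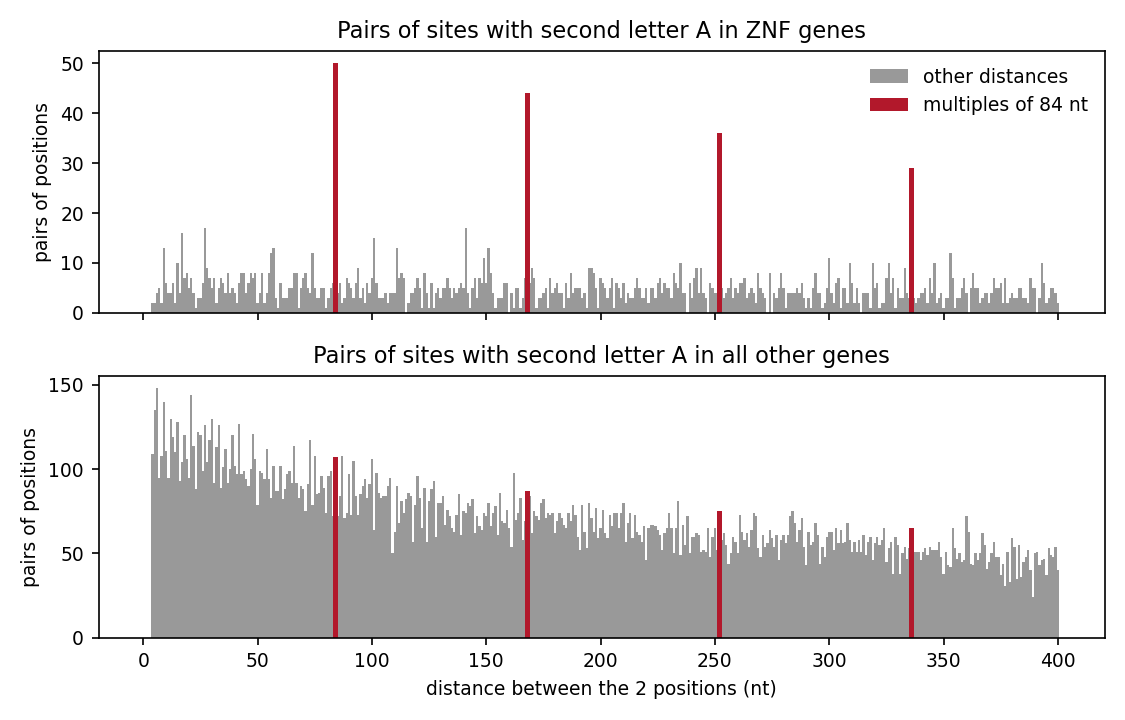
Number of pairs of AAC positions (both lists, each position once) on the same gene and strand, by their distance in nt, in ZNF genes (top) and all other genes (bottom); red bars mark multiples of 84 nt. In ZNF genes the red bars reach 50, 44, 36 and 29 pairs, while no other distance exceeds 17.

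Among the genes with the most AAC sites, SPEN, which encodes a transcriptional repressor, had 26, 21 and 0 AAC sites under insulin replicates 1, 2 and 3 and 34, 2 and 3 under Torin1. SRRM2, which encodes a splicing scaffold of nuclear speckles, had 37, 12 and 1, and 26, 0 and 3. MKI67 had 30, 21 and 3, and 18, 1 and 3. In all of these most Torin1 sites stood under replicate 1, as they did in the list as a whole, so counts are compared between the replicate 1 libraries below. TUG1, known as a long non-coding RNA, had 20 AAC sites under insulin replicate 1 and 23 under Torin1 replicate 1.

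Of the 5 genes with the largest loss of AAC sites over the lists, the 4 tested ones were lower in the input with Torin1, and the 5 with the largest gain were higher. Of all tested genes 42.5% were called lower and 43.4% higher. The GAC sites of the genes described here mostly moved the same way. PRR14L went from 23 AAC and 36 GAC sites under insulin replicate 1 to 4 and 6 under Torin1 replicate 1. Its input values were 10291, 10467 and 9857 normalized units with insulin and 1067, 1076 and 1091 with Torin1, a log2 fold change of -3.24 ± 0.0337 (SE; limma, adjusted p = 1.17e-26). MAP1B, a microtubule-binding protein gene, went from 27 to 3 AAC and from 33 to 7 GAC sites. The input of MAP1B went from 6754, 6434 and 6874 units to 1016, 1054 and 1008. ZNF292 went from 17 to 10 AAC sites under replicate 1 and from 31 to 0 under replicate 2, and its GAC sites from 21 to 9 and from 17 to 0. The input of ZNF292 went from 7982, 8489 and 8090 units to 1810, 1899 and 1777. These 3 genes were each called lower by limma. CASP8AP2, an apoptosis and histone gene regulator, went from 23 to 5 AAC and from 25 to 12 GAC sites. Neither CASP8AP2 nor TUG1 had a tested input value here.

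VCAN, the versican gene, had 0 AAC sites in the insulin list and 15, 0 and 3 under the Torin1 replicates. VCAN had 1 GAC site under insulin replicate 1 and 21 under Torin1 replicate 1. Its input rose from 177, 139 and 173 units to 2761, 2741 and 2695, a log2 fold change of 4.07 ± 0.0691 (SE; limma, adjusted p = 3.58e-23). ARGLU1, a splicing regulator gene, went from 4 to 12 AAC sites under replicate 1, SLITRK5, a neuronal membrane protein gene, from 2 to 12, and CENPP, a centromere protein gene, from 0 to 9. Their GAC sites under replicate 1 went from 2 to 8, from 4 to 11 and from 0 to 6. HNRNPA2B1, which encodes an RNA-binding protein proposed as an m6A reader, went from 4 to 15 AAC sites under replicate 1 while its GAC sites were 4 and 2, and its input from 9435, 9475 and 9659 units to 17877, 17971 and 16814. The log2 fold changes of ARGLU1, SLITRK5, CENPP and HNRNPA2B1 were 1.53, 1.44, 0.62 and 0.88. Each was called higher by limma, as were 43.4% of all tested genes.

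**Figure D5:**
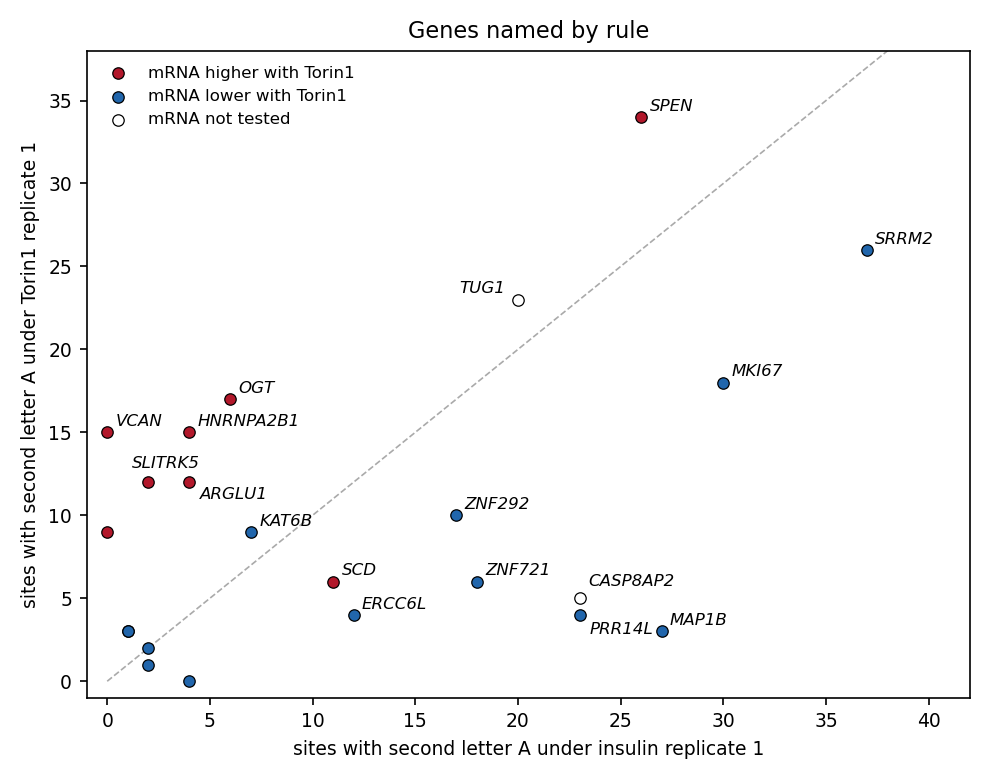
AAC sites under insulin replicate 1 (x) and Torin1 replicate 1 (y) for the genes named by most sites, largest loss or gain, and highest or lowest AAC share; the dashed line marks equal counts, and C15orf39 (higher) lies under PAQR4 (lower) at 1 and 3. Colour gives the limma call of the gene's input level; the genes farthest below the line, MAP1B with 27 and 3 sites and PRR14L with 23 and 4, were lower with Torin1, and VCAN, with 0 and 15, was higher, while SRRM2, lower here, stood at 0.0174 on the log2 scale with scaling to equal totals.

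Across all genes, 148 tested genes had at least 5 AAC sites fewer under Torin1 replicate 1 than under insulin replicate 1, and 145 of these were lower in the input and 3 higher. Of all 13842 tested genes 42.5% were called lower and 43.4% higher with Torin1 (limma, adjusted p below 0.05), or 86.0% in either direction. Of 145 genes with at least 5 AAC sites more, 121 were higher and 16 lower. The median log2 fold changes of these gene groups were -1.58 and 0.74, against 0.02 for all tested genes. Genes with AAC sites in the insulin list alone numbered 1924, with 561 higher and 1095 lower, and those with AAC sites in the Torin1 list alone 1252, with 880 higher and 220 lower. Of 1202 genes with 10 or more AAC sites, 300 were higher and 798 lower, with a median of -0.48. The input level thus moved with the number of listed sites, and a change in methylation and a change in RNA level cannot be told apart from these counts; nor can fewer cells of a type and less RNA per cell in a bulk input.

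The genes of the m6A machinery carried few AAC sites each. Among writers, RBM15, which helps to recruit the complex, had 10 under insulin replicate 1 and 10 under Torin1 replicate 1, while its input fell from 1706, 1597 and 1551 units to 534, 510 and 565. Its 20 GAC sites under insulin replicate 1 stood against 14 under Torin1 replicate 1. WTAP had 5 and 6, and METTL3, the catalytic subunit, 1 and 0. Of the 9 tested writers 7 were lower and 2 higher, the higher ones being WTAP at a log2 fold change of 0.47 and METTL3 at 0.27, while RBM15B and ZC3H13, lower here, stood at 0.0195 and 0.0660 and were not called with quantile normalization. ALKBH5 had 5 AAC sites under insulin replicate 1 and 0 under Torin1 replicate 1, with its input at -1.58, and FTO had 0 and 3, with its input at 0.81; both were called by limma. Among readers, YTHDF1 had 10 and 8, YTHDF2 3 and 7 and YTHDF3 5 and 3, and of 10 tested readers 6 were lower and 3 higher; YTHDF3, lower here, was not called with quantile normalization. Of all tested genes 42.5% were lower and 43.4% higher.

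In the MAX network, whose members pair with MAX or MLX to bind E-box DNA, MYC had 3, 1 and 0 AAC sites under the insulin replicates and 11, 0 and 1 under Torin1. Its input rose from 363, 295 and 358 units to 1293, 1249 and 1333, a log2 fold change of 1.93 ± 0.0661 (SE; limma, adjusted p = 6.33e-18). MGA, a MAX partner, had 11, 8 and 4 AAC sites with insulin and 7, 0 and 0 with Torin1, and its input fell by 0.94 on the log2 scale. Of 12 tested members 7 were lower and 4 higher, where 42.5% and 43.4% of all tested genes were. With quantile normalization MLXIP, at -0.0323, and MXD4, at -0.0831, were no longer called. In the mTOR pathway, TSC1, an upstream inhibitor of mTOR complex 1, had 18 AAC sites under insulin replicate 1 and 4 under Torin1 replicate 1, and its input went from 14157, 14758 and 13970 units to 1763, 1714 and 1747. LARP1, which binds the mRNAs of ribosomal proteins, had 9 and 9, and its input, at a log2 fold change of 0.05, was not called. Of 24 tested members 13 were lower and 8 higher, or 54.2% and 33.3%, against 42.5% and 43.4% of all tested genes.

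Of all tested genes 43.4% were called higher in the input with Torin1 and 42.5% lower, or 86.0% in either direction. Of the ribosomal protein genes, 73 of 82 tested were higher, or 89.0%, and 5 lower. Their AAC sites numbered 79 of 176 listed sites under insulin replicate 1 and 145 of 346 under Torin1 replicate 1, or 44.9% and 41.9%. All AAC sites of these libraries numbered 17348 of 50656 and 19521 of 56298. For SR and hnRNP genes 19 of 29 were higher, or 65.5%, and 8 lower, and their AAC sites numbered 116 of 242 and 144 of 291. For mitosis genes 16 of 24 were higher and 6 lower, with 72 AAC of 157 sites and 91 of 208. For chromatin regulators 8 of 31 were higher and 19 lower, with 172 AAC of 484 sites and 161 of 456. ASH1L, a histone methyltransferase gene, had 13 and 14 AAC sites under the replicate 1 libraries while its input fell from 9142, 9590 and 9385 units to 3150, 3203 and 3176. CENPF had 9 and 22 sites, with its input at 2929, 2957 and 2984 units and 5290, 5133 and 5191.

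The summed input values lay between 12424643 and 12528454 units for insulin and between 11418114 and 11438881 for Torin1, and with these sums made equal the median over all tested genes shifts by 0.12 on the log2 scale. Of 7 markers of this kidney-derived line, NEFL and PAX8 had no input value, and 4 passed the filter on low values, namely INA, LHX1, NEFM and VIM. The list's summed level was 3537 to 3639 units with insulin and 8553 to 8591 with Torin1. Of 5 blood cell markers HBB had no input value and 2 passed, with sums of 105 to 121 and 1 to 10 units. Of 4 keratinocyte and hepatocyte markers KRT5 and KRT14 had no input value, and none passed. Fibroblast and endothelial markers, of which 2 of 5 passed while COL1A2 and PECAM1 had no input value, summed to 187 to 238 and 526 to 552 units. The part of these markers' cell types in the results above was not tested.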

How the data were processed

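The authors deposited 1 list of m6A sites per condition on hg38 and 1 expression table. Each site carries its replicate, its reads, its substituted reads and a 5-mer; the deposited value is a fraction, substituted reads divided by reads, as the file shows. The authors normalized the deposited expression values and rounded them, as the values show, so they were used as a score and not as counts. The submitters' processing notes name STAR, DESeq, BWA 0.7.1 and DESeq2 1.22.2, with no roles given. Which replicate calls were merged, and how, is not given in the sources used here.

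AAC and GAC sites were compared within the 6 miCLIP libraries by two-sided exact sign-flip tests, adjusted by Benjamini-Hochberg over 8 comparisons. Sites were assigned to RefSeq gene bodies (GRCh38.p14) on the same strand. The strand came from the RefSeq promoter table for 15843 of 20037 protein-coding genes. For 1130 genes it came from 5 or more sites with 90.0% on 1 strand, a rule that was right in 97.6% of 5567 genes of known strand. At all 1845 places where a site lay in a RefSeq start window, the 5-mer matched the sequence. Of 17520 table genes 97.1% matched a RefSeq symbol.

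Expression was tested with limma's trend method (limma 3.58.1, R 4.3.3) after log2(value + 1), keeping genes that reached 10 in 3 or more libraries; this scale understates fold changes of low genes. The test was also tried on simulated data. A count model had been considered and was not used, because the values are normalized. Replicates are biological per the labels. Named genes were the 5 with most AAC sites in each list, the 5 largest gains and losses, the 5 highest and lowest AAC shares among genes with 40 or more sites, and list members; named sites were the 3 with most substituted reads per list and the top site of each 5-mer. Within lists the genes with most AAC sites were taken. Members and lists were chosen with earlier results of these data known. A gene that the rule named and a marker are not reported here.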

Additional observations from a re-analysis of the deposited data

How the results depend on the processing

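Each comparison of AAC with GAC sites kept its direction when any 1 library was left out: the substituted fraction differed by 0.0300 to 0.0378, the share with 1 substituted read by 3.65 to 5.14 points, recurrence by -7.39 to -5.89, last letter C by -4.71 to -4.16, first letter G by 2.40 to 3.32, the share near the gene end by -3.35 to -2.97, neighbours within 50 nt by -0.631 to -0.0280 and the median reads by -1.6 to -0.8. With 5 libraries the exact test cannot pass 0.05. The Torin1 minus insulin difference in the AAC share ran from -0.311 to 2.23 points, and was -1.15 with 3 or more substituted reads and -0.149 in genes expressed in every library. With 10 or more reads, which left 5 libraries and so no call at 0.05, the fraction difference was -0.00248, 1 substituted read 3.69 points, recurrence -4.71, last letter C -7.08, first letter G 0.479, gene end -3.34 and neighbours 1.05. With 3 or more substituted reads the fraction differed by 0.0307, recurrence by -4.93, last letter C by -2.89, first letter G by 8.93, gene end by -6.54 and neighbours by 0.0214; none passed 0.05 after adjustment, and the cause was not tested. Neighbours within 20 nt differed by 0.0438 points. Matching on reads, added after seeing the data, as was matching on substituted reads, turned the fraction difference to -0.00503. Taking gene strands from the RefSeq table alone gave -3.45 points near the gene end.

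Same-numbered input libraries did not deviate together (correlations of -0.0234, 0.00972 and -0.00399), so the numbers were not taken as pairs. With the replicate number as a block, 5983 genes were higher and 5867 lower. Averaged over the 3 replicate numbers as blocks, the differences were unchanged, at 0.0343 for the fraction, 4.72 points for 1 substituted read, -6.88 for recurrence, -4.37 for last letter C, 2.82 for first letter G and -3.19 for the gene end, but 3 values cannot pass 0.05. Leaving out 1 input library gave 5477 to 5943 genes higher and 5498 to 5784 lower. Scaling to equal totals moved the median of all genes by 0.12 on the log2 scale and called 6681 higher and 5281 lower. It turned SRRM2 to 0.0174, and quantile normalization turned RBM15B to 0.0195 and ZC3H13 to 0.0660. Most AAC sites rest on 1 substituted read, which limits what single sites show; intervals cover counting error only.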
